A study of Mus musculus with 46 samples.

Results

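A set of 145 H3K27ac regions called in adult microglia had no called counterpart in 4 lists from proliferating (Ki67-positive) microglia. Further Ki67-positive lists, described below, did not enter the rule and held some of these regions. H3K27ac, acetylation of lysine 27 on histone H3, marks active promoters and enhancers. The starting point was the authors' list of 19572 regions for adult replicate 1, of which 18586 overlapped a region of adult replicate 2 by at least 1 bp. A region was counted as lost when it overlapped no region in any of 4 lists: the 2 replicates of Ki67-positive microglia at postnatal day 8 (PND8) and the 2 replicates of Ki67-positive microglia that were refilling the brain after depletion. The rule removed 0.780% of the reproducible adult regions. The other 18441, called retained here, overlapped at least 1 of the 4 lists, and 16400 overlapped all 4. The regions were thus chosen by the presence or absence of H3K27ac calls in these 6 lists, so the properties that follow from those calls are described without a test. A lost region is absent from a list of called peaks, and acetylation below the calling threshold is not scored.

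All mice were male C57BL/6, and Ki67 is a protein of cycling cells that was used to sort them. Adult microglia were untreated per the labels and came from wild-type mice of 60 and 65 days for H3K27ac and Rpb2, 75 days for H3K4me3, 80 days for ATAC-seq, which maps open chromatin, and 90 days for RNA; the headers of the adult files for H3K27ac and for Rpb2, an RNA polymerase II subunit, also carry the word vehicle. PND8 microglia were untreated and sorted as Ki67-negative or Ki67-positive. Recovery means 17 days on a diet with PLX5622, an inhibitor of the CSF1 receptor that depletes microglia, then 3 days without it. That diet began at 70 days for H3K27ac (age 90 days) and at 55 days for RNA and ATAC-seq (age 75 days). Cuprizone, a copper chelator that strips myelin, was fed for 4 weeks to mice of 90 days, whose Ki67-negative and Ki67-positive microglia entered the H3K27ac series only. Cells for chromatin immunoprecipitation (ChIP) were fixed wild-type cells stained for Ki67, whereas PND8 and recovery RNA came from mice with a Ki67-rfp reporter, which the adult mice lacked. The titles of the PND8 and recovery ATAC-seq samples name the reporter too, while their genotype field says wild type. The gate used CD11b, CD45 and CD44, and cells were isolated in the presence of butyrate, which inhibits histone deacetylases, and flavopiridol, which blocks transcription.

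Microglia are the resident macrophages of the brain. Their adult identity rests on enhancers bound by PU.1 and partner factors, and signals from the brain such as TGF-beta and CSF1 receptor ligands keep it up. In mice these enhancers and their genes, among them Cx3cr1 and Selplg, are filled in during postnatal maturation. Acetylated regions away from promoters are commonly read as enhancers, but the gene that such a region serves cannot be read from distance, so each region below is tied to its nearest transcription start site (TSS) by position only.

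The promoter stretches that matter most for these regions are shown first. Each is the 250 bases before the annotated start, from RefSeq (build GRCm38.p6), 5' to 3' in the direction of the gene, with capitals for the letters of a searched motif. The only lost region within 1000 bp of a TSS of the RNA count table, chr7:34812423-34813708 (mm10), holds the whole Chst8 stretch (chr7:34812712-34812961, minus strand). It also holds the whole stretch of Gm38987 (chr7:34812458-34812707, plus strand), which is not printed here. The second strongest lost region, chr11:96878638-96881215, holds that of Gm11523 (chr11:96880624-96880873, minus strand). The next 4 stand near a nearest gene whose RNA is described below and lie outside the lost regions: Hlf (chr11:90390918-90391167, minus strand), Ptprm (chr17:67354460-67354709, minus strand), Cx3cr1 (chr9:120068297-120068546, minus strand) and Adgrg1 (chr8:94984149-94984398, plus strand).
Chst8: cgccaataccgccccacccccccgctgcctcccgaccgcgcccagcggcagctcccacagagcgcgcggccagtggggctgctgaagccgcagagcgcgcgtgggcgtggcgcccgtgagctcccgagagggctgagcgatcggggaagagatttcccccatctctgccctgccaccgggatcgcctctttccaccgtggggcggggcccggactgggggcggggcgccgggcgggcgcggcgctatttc
Gm11523: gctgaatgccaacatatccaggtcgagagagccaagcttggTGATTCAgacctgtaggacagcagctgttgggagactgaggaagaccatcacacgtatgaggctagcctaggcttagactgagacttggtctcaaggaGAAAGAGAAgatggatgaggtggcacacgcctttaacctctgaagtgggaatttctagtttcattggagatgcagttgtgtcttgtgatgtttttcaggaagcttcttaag
Hlf: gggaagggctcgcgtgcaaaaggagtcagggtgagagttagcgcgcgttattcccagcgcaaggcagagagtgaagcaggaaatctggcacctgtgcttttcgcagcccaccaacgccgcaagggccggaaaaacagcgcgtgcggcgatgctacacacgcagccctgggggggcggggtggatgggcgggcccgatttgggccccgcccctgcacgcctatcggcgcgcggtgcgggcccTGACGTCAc
Ptprm: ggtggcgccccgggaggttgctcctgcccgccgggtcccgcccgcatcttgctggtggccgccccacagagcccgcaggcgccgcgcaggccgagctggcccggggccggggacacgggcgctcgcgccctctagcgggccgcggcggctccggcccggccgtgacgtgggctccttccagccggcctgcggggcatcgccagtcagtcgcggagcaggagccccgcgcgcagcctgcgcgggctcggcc
Cx3cr1: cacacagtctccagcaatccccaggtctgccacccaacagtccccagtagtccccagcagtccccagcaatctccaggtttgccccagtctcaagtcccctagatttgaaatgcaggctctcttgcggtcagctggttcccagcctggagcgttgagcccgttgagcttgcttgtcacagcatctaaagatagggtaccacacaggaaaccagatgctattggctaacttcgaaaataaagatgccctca
Adgrg1: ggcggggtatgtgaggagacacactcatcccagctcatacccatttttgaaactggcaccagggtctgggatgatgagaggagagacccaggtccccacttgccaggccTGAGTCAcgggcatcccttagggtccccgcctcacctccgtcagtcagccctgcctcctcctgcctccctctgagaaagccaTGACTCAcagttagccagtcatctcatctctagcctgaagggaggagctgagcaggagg

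The 12 H3K27ac libraries held 15233543 to 21747628 tags, apart from adult replicate 1 with 22888521. Adult replicate 1 stood apart: 32.6% of its tags lay in its 19572 regions, whereas the other 11 libraries had 45.5% to 69.7% of tags in 24082 to 30539 regions. The 10 RNA libraries held 6865903 to 10287876 counts. RNA of Mki67, the gene of the sorting marker, measured 13.4 and 11.0 CPM, counts scaled to library size, in the adults. It reached 919.6 and 1107 CPM in Ki67-positive PND8 cells, and 930.1 and 1087 CPM in Ki67-positive recovery cells. Csf1r, which all microglia need, lay between 1267 and 1783 CPM in all 10 libraries and passed no test against the adults in the Ki67-positive groups.

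The lost regions were narrow, weak and distal. Their median width was 626 bp against 1462 bp for retained regions, and 70 of 145 were exactly 500 bp wide, the size of a single window in the authors' peak calling. Of the reproducible regions of 500 bp, 3.81% were lost, and of the widest class (5054 regions) 1. The adult replicate 1 signal, in normalized tags (tags per region after each library was scaled to 10000000 tags), had a median of 24.5 and a range from 10 to 379.7, against a median of 102 for retained regions. With all reproducible regions cut into 4 equal classes of that signal, 109 lost regions fell in the lowest class, 29 and 6 in the middle classes and 1 in the highest. In adult replicate 2 the regions that they overlap had a median of 54.2 normalized tags, and 116 of the 145 overlapped replicate 2 regions that were themselves all absent from the 4 lists; the other 29 overlapped a replicate 2 region that reached a Ki67-positive region. Without adult replicate 1, 859 of the 24903 regions of adult replicate 2 were absent from the 4 lists. That setting also drops the need for the adult replicates to overlap. With that need kept, replicate 2 regions as the base gave 123. Without adult replicate 2, 389 of the 19572 replicate 1 regions were absent, so the size of the set depends on both adult lists.

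**Figure D1:**
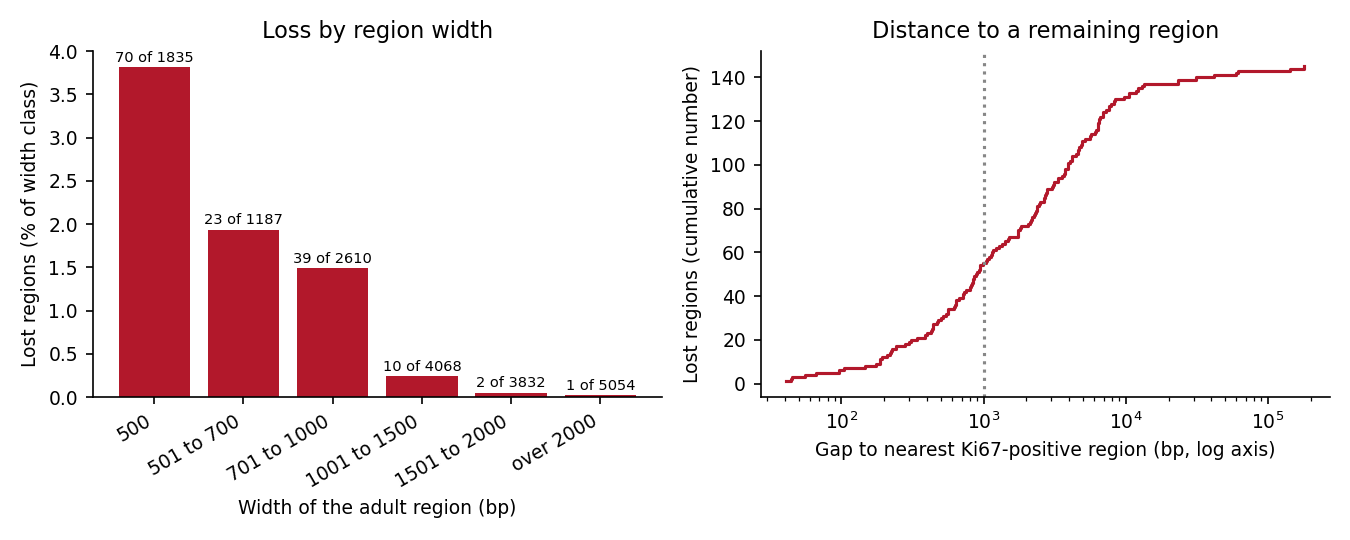
Left, share of the reproducible adult H3K27ac regions that were lost (percent, y axis) by width of the region (bp, x axis), with lost and total regions above each bar. Right, cumulative number of lost regions (y axis) by the gap to the nearest region of the 4 Ki67-positive lists (bp, log axis), with a dotted line at 1000 bp, below which 55 of 145 regions lie.

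A TSS of the count table lay within 1000 bp of 1 lost region (0.690%) and of 38.6% of retained regions. Another 43 lay within 10000 bp, 83 between that and 100000 bp, and 18 beyond, and 80.0% were centred inside a RefSeq gene against 75.1% of retained regions. Few were isolated: the gap to the nearest Ki67-positive region had a median of 2054 bp and ran from 41 to 178881 bp, and 131 of 145 gaps were under 10000 bp. In 14 cases each of the 4 lists had a region under 1000 bp away. Retained adult regions shared the nearest gene with 137 of the 145. At the edge of the rule, the smallest gaps inside the set were 41 bp (nearest Mbp), 44 bp (Nav3) and 45 bp (Zfhx3). The smallest overlaps that kept a region out of the set were 30 bp (Fbxo31), 62 bp (Lnpep) and 75 bp (Celf2). The 145 regions had 136 different nearest genes.

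Lost regions of high and of low signal had microglial identity genes among their nearest genes. Whether such genes are nearer to lost than to retained regions was not tested. The strongest, chr12:8350395-8352285 (1890 bp), measured 379.7 and 776 normalized tags in the adult replicates and lay 37907 bp from the TSS of Hs1bp3. The eighth lies inside Adgrg1 (chr8:94994257-94994996), the adhesion receptor GPR56, with 100.1 and 1665 normalized tags. The replicate 2 value is that of the whole overlapping region, which in this case also reached a Ki67-positive region. Inside Selplg, the gene of the PSGL-1 adhesion ligand, a region of 500 bp (chr5:113824655-113825155) measured 34.5 normalized tags in replicate 1. Near Sparc, which encodes a secreted matrix protein, the region chr11:55425032-55425532 measured 13.1, at 5202 bp from the TSS. Il10ra, the gene of a receptor chain for interleukin 10, had a region of 627 bp at 9217 bp from its TSS (chr9:45278053-45278680, 90.0 normalized tags). The region nearest to Cx3cr1, the fractalkine receptor, lay 21902 bp from its TSS (chr9:120046144-120046644, 40.6) and 174 bp from the next Ki67-positive region. Among lineage transcription factors, Mef2c, Tcf4 and Zeb2 each had a single lost region, at 482638, 59698 and 32324 bp from the TSS.

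H3K27ac lists that the rule did not use held many of the lost regions. After cuprizone, the Ki67-negative lists held 67 and 90 of the 145 (46.2% and 62.1%) and the Ki67-positive lists 33 and 45 (22.8% and 31.0%). At PND8 the Ki67-negative lists held 34 and 43 (23.4% and 29.7%). The same lists held 93.6% to 99.1% of retained regions, and 43.6% to 82.1% of the 234 regions found in exactly 1 of the 4 rule lists. The 2 cuprizone Ki67-negative lists were thus the 2 highest of the 6, and the 4 cuprizone lists overlapped the 2 PND8 lists in range. The mean share was 14.0 percentage points higher in the 4 cuprizone lists than in the 2 PND8 Ki67-negative lists (40.5% and 26.6%, exact two-sided permutation test over libraries, p = 0.4, smallest possible p 0.133). Within cuprizone it was 27.2 points higher in Ki67-negative than in Ki67-positive cells (54.1% and 26.9%, exact two-sided permutation test, p = 0.333, the smallest that 2 against 2 libraries can give). Neither test could have passed at this size, so neither p-value decides whether the shares differ. The first comparison also pools Ki67-negative and Ki67-positive cuprizone lists, whereas its PND8 lists are Ki67-negative only. Among Ki67-negative lists alone the mean share was 54.1% after cuprizone and 26.6% at PND8, a difference that was not tested. Both cuprizone Ki67-negative lists lay above both Ki67-positive lists, also within each pair that shares a header code (46.2% against 22.8%, and 62.1% against 31.0%). The 234 regions found in 1 of the rule lists had the same order within each pair (64.5% against 43.6%, and 82.1% against 63.2%). It was thus not particular to the lost regions. In cuprizone the shares were higher in replicate 2, whose lists held 30539 and 30283 regions, than in replicate 1 with 24082 and 25108; the part of list size was not tested.

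**Figure D2:**
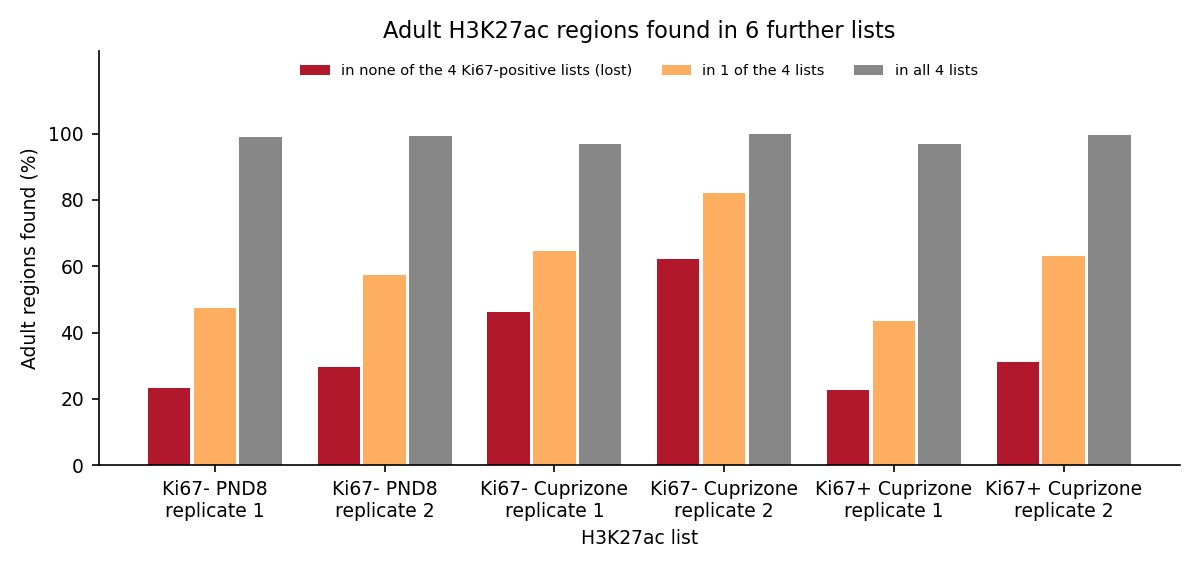
Share of adult H3K27ac regions (percent, y axis) that overlap a region in each of 6 lists the rule did not use (x axis), for regions in none of the 4 Ki67-positive lists (lost, red), in 1 of them (orange) and in all 4 (grey). Lost regions are found least often in each list, and most often in the 2 cuprizone Ki67-negative lists (46.2% and 62.1%).

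Region by region, 118 of the 145 were found in at least 1 cuprizone list and 56 were found in at least 1 PND8 Ki67-negative list. Both cuprizone Ki67-negative lists held 47, both cuprizone Ki67-positive lists 17, and both PND8 Ki67-negative lists 21. In 16 cases both Ki67-negative and neither Ki67-positive cuprizone list held the region, and the reverse was seen for none. Those 16 included regions nearest to Otulinl, Dnmt3a, a DNA methyltransferase, and Prkcb, a protein kinase C. All 6 lists held 2 regions, of which the region nearest to Anxa3 (an annexin, chr5:96887166-96888217) is described here. For these 6 lists the normalized tags are those of the whole regions that overlap the lost region. Near Anxa3 they were 17.9 and 34.9 in PND8 Ki67-negative cells. In cuprizone they were 51.5 and 70.7 in Ki67-negative and 19.0 and 14.8 in Ki67-positive cells. None of the 6 lists held 21 regions, among them those nearest to Tcf4, Alox5ap, Ackr3 and Pon2. The median signal in adult replicate 1 was 25.3 normalized tags for regions in 0 of the 6 lists, 22.7 to 24.0 for those in 1 to 4, 30.1 for the 9 in 5 lists and 83.7 for the 2 in all 6.

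Near Chst8, Hlf and Csmd3, whose RNA was strongly lowered, and near Ncaph, whose RNA was raised, the pattern differed from region to region. The Chst8 region was in all 4 cuprizone lists (62.0 and 75.7 normalized tags in Ki67-negative, 24.3 and 56.4 in Ki67-positive cells) and in neither PND8 list. The Hlf region (chr11:90355300-90356103, inside the gene) was in both cuprizone Ki67-negative lists (52.5 and 47.4), in 1 of 2 Ki67-positive lists (12.1) and in neither PND8 list. The Csmd3 region (chr15:48584328-48584828, inside the gene and 207411 bp from its TSS) was found in a single further list, cuprizone Ki67-positive replicate 2, with 12.1. With 10.9 normalized tags in adult replicate 1 it was number 140 of the 145 by signal. The Ncaph region (chr2:127121695-127122330, inside the gene) was in both PND8 Ki67-negative lists (129.6 and 113.1) and both cuprizone Ki67-negative lists (125.4 and 146.9). In Ki67-positive cuprizone cells it was in 1 list, with 21.0.

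Open chromatin, assayed by ATAC-seq in 1 library per condition and so without a test, was less frequent over lost than over retained regions. An adult ATAC-seq peak overlapped 77 of the 145 (53.1%) against 92.4% of retained regions. Peaks of Ki67-positive PND8 cells overlapped 48 (33.1%, retained 89.9%), and those of Ki67-positive recovery cells 67 (46.2%, retained 92.6%). With width held at 500 bp the shares were 40.0%, 24.3% and 31.4% against 61.0%, 54.4% and 60.8%. Open in all 3 libraries were 40 lost regions, open in none 56, and open in the adults alone 18. Those 18 included regions nearest to Adgrg1, Ptprm, Amer2, Sparc and Ncaph. The lost regions held 82 adult ATAC-seq peaks, of which 39 met a peak in both Ki67-positive libraries, 19 in recovery only and 1 in PND8 only (in the region nearest to Fez2). The remaining 23 (28.0%) met neither, against 6.89% of the 28038 adult peaks in retained regions. Those 23 peaks were weak, with a median adult tag count of 16.5 against 46.4 for the 39.

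**Figure D3:**
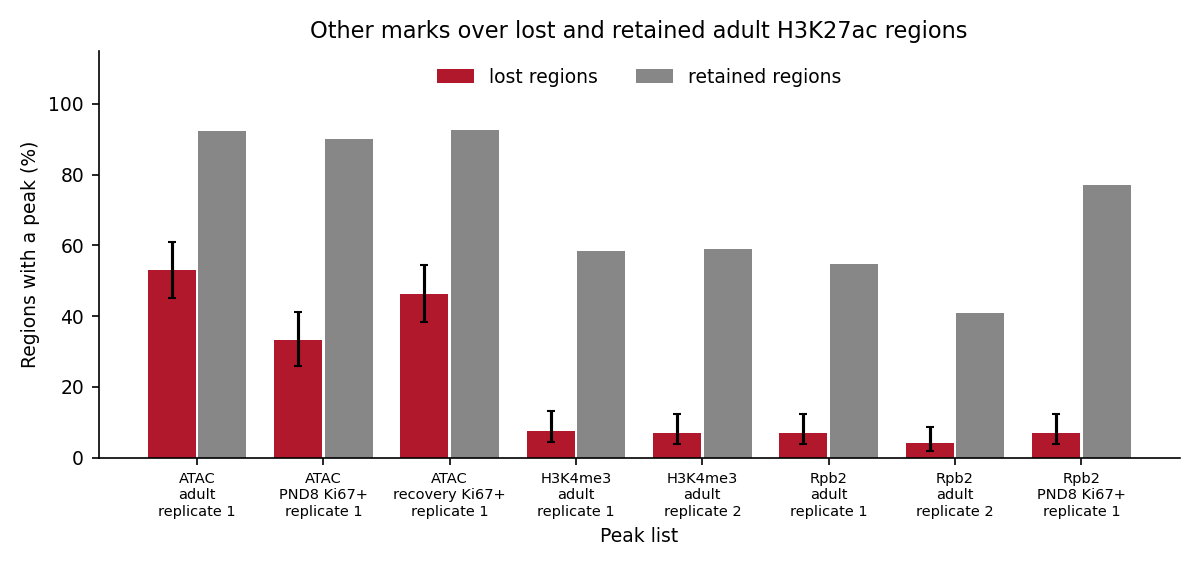
Share of lost (red, with 95% Wilson intervals) and retained (grey) adult H3K27ac regions that overlap a peak (percent, y axis) in each ATAC-seq, H3K4me3 and Rpb2 list (x axis). Adult ATAC-seq peaks lie in 53.1% of lost and 92.4% of retained regions.

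Promoter chromatin was rare. H3K4me3, a mark of promoters, overlapped 11 and 10 lost regions in the adult replicates (7.59% and 6.90%) against 58.3% and 59.0% of retained regions. Besides Chst8 and Copz2, the regions with this mark included those inside Adgrg1 and Selplg, at 10227 and 5596 bp from the annotated TSS of the gene. Peaks of Rpb2 overlapped 10 and 6 lost regions in the adults (6.90% and 4.14%, retained 54.8% and 40.9%) and 10 in Ki67-positive PND8 cells (6.90%, retained 77.1%). The regions nearest to Chst8 and Copz2 were the only 2 with Rpb2 in both adult replicates, and neither had an Rpb2 peak at PND8. In 4 regions, nearest to Coq10b, Mybphl, Nr3c1 and 2810459M11Rik, Rpb2 was called at PND8 and in neither adult library.

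Of the 136 nearest genes, 98 had a promoter stretch in the RefSeq table. Adult replicate 1 H3K27ac regions overlapped 71 of the 98 (72.4%), against 6421 of 16242 (39.5%) for the other genes of the count table. That difference was not tested. Of the 71 stretches, 65 (91.5%) overlapped a region in all 4 Ki67-positive lists. For the other genes the share in all 4 lists was 95.5% (6129 of 6421), so in this share the nearest genes lay near the background. The Cx3cr1 and Adgrg1 stretches overlapped a region in all 4 lists and that of Ptprm in 3. No H3K27ac region of adult replicate 1 covered the Hlf stretch, and H3K4me3 covered its 250 bases in both adult replicates. H3K27ac of adult replicate 2 was not examined at these stretches. In the Chst8 stretch H3K27ac of adult replicate 1 and H3K4me3 of both adult replicates covered all 250 bases. An adult ATAC-seq peak covered 111 of its bases. The recovery ATAC-seq peak covered 62 of them and PND8 none. Each of 13 motifs was searched on both strands of the 250 bases, in the 98 stretches and in all 16340 of the count table's genes. GGAAGT (ETS) was in 14.3% of the 98 and 21.2% of all, and GAGGAAGT, the longer PU.1 form that contains it, in 4.08% and 2.33%. TGANTCA (AP-1) was in 7.14% and 6.11%, TGACGTCA (CRE) in 3.06% and 2.07%, CACGTG (E-box) in 7.14% and 6.90%, and TTGCNNAA (CEBP) in 6.12% and 9.002%. GAAANNGAA (IRF) was in 3.06% and 6.995%, TGTGGTT (RUNX) in 1.02% and 3.64%, TGCTGAC (MAF) in 2.04% and 3.59%, and TAAAAATA (MEF2) in 1.02% and 1.91%. GGANTTTCC (NF-kB), GTCTAGAC (SMAD) and TTTCGCGC (E2F) were each in 1.02%, against 1.07%, 0.184% and 0.367%. The Adgrg1 stretch printed above holds 2 AP-1 matches, that of Gm11523 an AP-1 and an IRF match, and that of Hlf a CRE match.

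RNA was lower than in the adults for many of the nearest genes. Genes were tested with edgeR's quasi-likelihood test and called at a Benjamini-Hochberg adjusted p under 0.05 over all genes tested. In such bulk samples, fewer cells of a type and less RNA per cell cannot be told apart. In Ki67-positive PND8 cells 68 of the 126 tested nearest genes were lower and 11 higher (54.0% and 8.73%), when 24.3% of all 12230 genes tested were lower and 25.1% higher. Their median log2 fold change was -0.30, against 0.00 over all genes. In Ki67-positive recovery cells 52 were lower and 15 higher (41.3% and 11.9%; all genes 21.0% and 23.9%), with a median of -0.22 against -0.01. Ki67-negative cells had the same lean: 49 lower and 12 higher at PND8 (38.9% and 9.52%; all genes 21.4% and 25.4%), and 37 lower and 16 higher in recovery (29.4% and 12.7%; all genes 17.6% and 21.5%). These 4 comparisons share the 2 adult libraries. The adult RNA libraries also carry a header code of their own, so what that code stands for and the adult state cannot be told apart. Leaving out a library cut the PND8 Ki67-positive counts to no fewer than 48 lower genes; for recovery the Ki67-positive counts fell to 29 lower and 8 higher without recovery replicate 2, and to 35 and 9 without adult replicate 2. For recovery Ki67-negative cells they fell to 20 and 7 or 17 and 7 without adult replicate 1 or 2, and to 22 and 8 without recovery replicate 2. The 10 nearest genes left out for low counts included Armc12, Podxl, Mybphl and Rtp1.

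**Figure D4:**
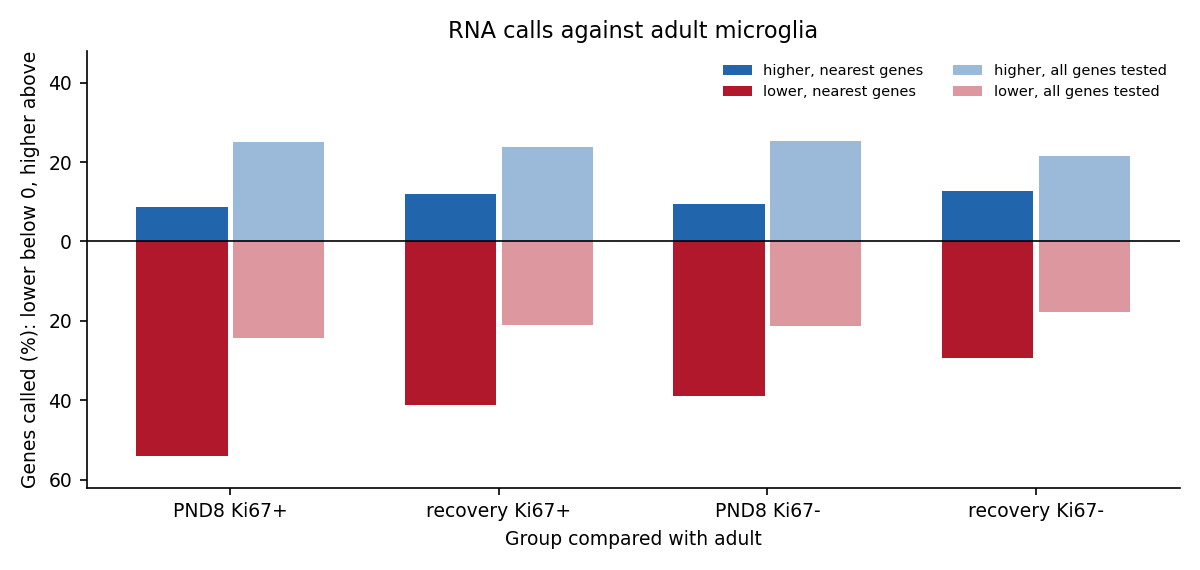
Genes called by edgeR at an adjusted p under 0.05 (percent of tested genes, y axis; higher than adult above 0, lower below 0) in each group against adult microglia (x axis), for the 126 tested genes nearest to lost regions (dark) and all 12230 genes tested (light). Lower calls are 54.0% of the nearest genes and 24.3% of all genes in PND8 Ki67-positive cells.

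Genes near some other adult regions leaned the same way in Ki67-positive cells, by less. Among genes nearest to retained regions over 1000 bp from a TSS, 33.3% were lower and 21.0% higher at PND8. In recovery these shares were 26.5% and 23.3%, and in Ki67-negative recovery cells 19.75% and 22.7%, without that lean. For genes nearest to any retained region they were 22.6% and 23.4% in Ki67-positive recovery cells. Among those nearest to retained distal regions of 500 bp, 36.7% were lower in Ki67-positive cells at PND8 and 30.3% in recovery (higher 20.6% and 21.2%). Among those nearest to a region found in 1 of the 4 lists it was 45.95% and 38.9% (higher 17.8% and 16.8%). In Ki67-negative PND8 cells this last set was lower for 43.8%, above the 38.9% of the genes of lost regions, and in Ki67-negative recovery cells for 26.5% against 29.4%. The sets also differed in read depth. The median adult CPM, which is not scaled by gene length, was 154 for the genes of lost regions, 119 for those of regions in 1 list, 74.9 for the genes of distal regions, 83.0 for those of distal 500-bp regions and 39.0 over all genes tested. The part of read depth in these shares was not tested. When the gene whose body holds the region replaced the nearest TSS, 55 of 91 were lower at PND8 and 38 of 91 in recovery.

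Among homeostatic genes, which mark resting adult microglia, 20 of 38 on the list were lower and 2 higher in Ki67-positive PND8 cells, and 19 lower and 2 higher in recovery. The list was drawn up with earlier results of these data known. It includes 5 nearest genes of lost regions, of which 4 are described, and their RNA did not move as a block. Adgrg1 measured 785 and 807 CPM in adults, 423 and 374 in Ki67-positive PND8 cells and 489 and 427 in recovery, with no overlap between adults and either group. It fell by 1.00 ± 0.10 (log2, SE; edgeR adjusted p = 4.35e-06) and by 0.80 ± 0.10 (edgeR adjusted p = 3.72e-05). Selplg measured 861 and 858 CPM in adults, 479 and 445 at PND8, and 832 and 923 in recovery. It fell by 0.89 ± 0.11 at PND8 (edgeR adjusted p = 2.13e-05) and in recovery lay on either side of the adult values (0.03, adjusted p = 0.85). Cx3cr1 measured 1582 and 1575 CPM in adults, 1343 and 1355 at PND8, and 1174 and 1233 in recovery. Its recovery difference passed (-0.39 ± 0.11, edgeR adjusted p = 0.00943) but was lost without adult replicate 1 or recovery replicate 1 (0.0532 and 0.0517), and its PND8 difference did not pass (-0.23, adjusted p = 0.096). Sparc (819 and 830 CPM in adults) was higher in recovery at 1031 and 1135 (0.39 ± 0.13, edgeR adjusted p = 0.0223). That call was lost without adult replicate 1, adult replicate 2 or recovery replicate 2 (up to 0.136).

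Among genes called lower in both Ki67-positive groups and with a mean of at least 10 CPM in adults, the largest falls were in Csmd3, Hlf and Chst8. Below that level, Kng2 (2.08 CPM in adults) had log2 fold changes of -2.82 at PND8 and -3.34 in recovery (edgeR adjusted p = 0.0153 and 0.0116). Csmd3, a large membrane protein with complement-control domains, measured 276 and 242 CPM in adults, 1.87 and 0.925 in Ki67-positive PND8 cells and 45.8 and 30.9 in Ki67-positive recovery cells. Its fold changes were 182-fold lower at PND8 (log2 -7.51 ± 0.27 SE, edgeR adjusted p = 3.38e-10, from 17 and 8 counts) and 6.70-fold lower in recovery (-2.74 ± 0.18, edgeR adjusted p = 6.16e-08). Hlf, a PAR bZIP transcription factor of the circadian output group, measured 59.2 and 54.0 CPM in adults, 2.20 and 2.77 at PND8 and 10.3 and 7.20 in recovery. It fell 22.7-fold (edgeR adjusted p = 2.77e-08) and 6.41-fold (1.03e-06). Chst8, a Golgi sulfotransferase and a gene whose promoter stretch lies in a lost region, measured 41.8 and 33.0 CPM in adults, 2.20 and 1.27 at PND8 and 9.37 and 6.33 in recovery. It fell 21.2-fold (edgeR adjusted p = 1.22e-07) and 4.71-fold (1.44e-05). In all 3 genes every Ki67-negative library of PND8 and recovery was below both adult libraries as well, at 2.11 to 4.46 CPM at PND8 for the 3 genes.

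**Figure D5:**
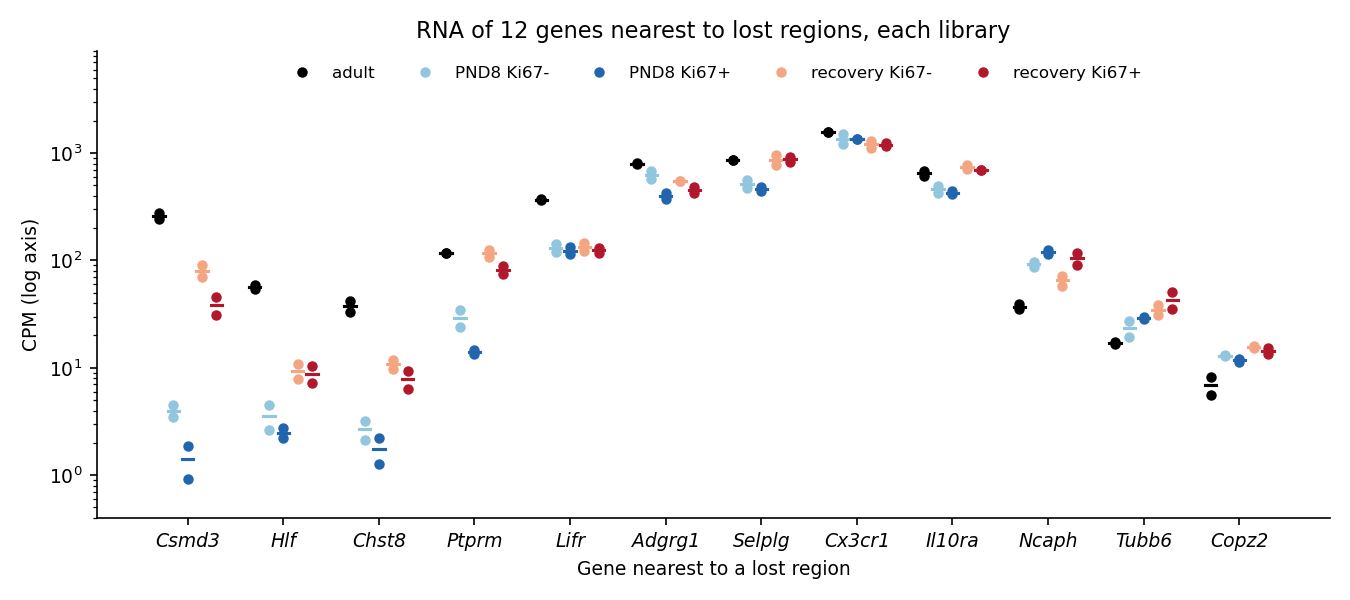
RNA of 12 genes nearest to lost regions (x axis) in CPM (y axis, log scale) for the 5 RNA groups (colours); each point is 1 library and each short line the group mean. Csmd3, Hlf and Chst8 drop from adult to every other group, Ncaph is above adult in every other group, and Cx3cr1 lies between 1124 and 1582 CPM in all 10 libraries.

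Lifr, Amer2, Nav3 and Prag1 were also lower than adult in both Ki67-positive groups. Lifr, the receptor chain for leukaemia inhibitory factor, measured 375 and 364 CPM in adults, 114 and 133 at PND8 and 131 and 118 in recovery, 2.99-fold and 2.97-fold lower (edgeR adjusted p = 1.36e-07 and 1.71e-07). Its lost region of 500 bp lies inside the gene (chr15:7134569-7135069), 5247 bp from the TSS, and was open in all 3 ATAC-seq libraries. Amer2, a regulator of Wnt signalling, fell by 1.39 ± 0.23 and 1.36 ± 0.23 on the log2 scale (edgeR adjusted p = 0.000215 and 0.000329). Nav3, a neuron navigator protein with 2 lost regions, went from 601 and 559 CPM in adults to 310 and 269 at PND8 and 386 and 326 in recovery. It fell by 1.00 ± 0.15 (log2, SE; edgeR adjusted p = 0.000123) and 0.70 ± 0.15 (0.00206). Prag1, a pseudokinase, went from 227 and 210 to 126 and 131 at PND8 and 127.1 and 120.2 in recovery (edgeR adjusted p = 5.41e-06 and 3.52e-06). Each of these falls was called in every fit that left out a library.

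Some genes fell mainly at PND8. Ptprm, a receptor tyrosine phosphatase with 2 lost regions inside the gene, measured 118 and 117 CPM in adults, 14.5 and 13.5 at PND8 and 89.2 and 74.4 in recovery. It was 8.37-fold lower at PND8 (edgeR adjusted p = 9.79e-09) and in recovery lower by less (-0.52 ± 0.14, adjusted p = 0.00888), a call lost without adult replicate 1 or recovery replicate 2 (0.0503 and 0.0985). Hivep3, a zinc finger protein, fell at PND8 by 1.01 ± 0.13 (edgeR adjusted p = 3.18e-05) and in recovery by 0.41 ± 0.13 (0.0187), the latter lost without either adult replicate or recovery replicate 2 (up to 0.172). Il10ra measured 613 and 684 CPM in adults and 444 and 412 at PND8 (-0.60 ± 0.10, edgeR adjusted p = 0.000219), against 699 and 696 in recovery (0.11, 0.401). Ssh2, a phosphatase of cofilin, fell at PND8 by 0.46 ± 0.12 (edgeR adjusted p = 0.00707) and not detectably in recovery (-0.15, 0.336).

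Lineage transcription factors near lost regions changed little. On the list 17 of 36 were lower and 6 higher at PND8, and 20 and 4 in recovery. Zeb2 measured 432 and 422 CPM in adults, 480 and 442 at PND8 and 417 and 375 in recovery, and passed neither test (adjusted p = 0.487 and 0.516). Mef2c passed in recovery (-0.30 ± 0.09, edgeR adjusted p = 0.0125; lost without adult or recovery replicate 2, up to 0.104) and not at PND8 (0.05, 0.68). Tcf4 passed both (-0.27 ± 0.09, edgeR adjusted p = 0.0235 at PND8 and 0.0276 in recovery). At PND8 the call was lost without any 1 of the 4 libraries, and in recovery without either adult replicate or recovery replicate 2 (up to 0.145 and 0.271). No gene of the immediate early, disease-associated, interferon, S phase or G2/M lists was the nearest gene of a lost region. Of the 30 immediate early genes 9 were lower and 7 higher at PND8, and 17 and 2 in recovery. All 52 G2/M genes were higher in both groups, and of 42 S phase genes 35 and 36 were higher and 1 (PND8) lower. Interferon genes were higher for 8 and lower for 2 of 22 at PND8 and higher for all 22 in recovery, and disease-associated genes higher for 14 of 27 at PND8, and 11 higher and 9 lower in recovery. On the inflammatory list 16 of 34 were lower and 6 higher at PND8, and 9 and 8 in recovery. Ki67-negative cells carried cell cycle RNA too: all 42 S phase genes were higher than adult at PND8 and 37 in recovery. At PND8 29 of the 42 were lower in Ki67-positive than in Ki67-negative cells.

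Fewer nearest genes rose, and the largest rise was in a gene of mitosis. Ncaph, a condensin subunit that packs chromosomes, measured 39.3 and 35.1 CPM in adults, 114 and 126 in Ki67-positive PND8 cells and 91.6 and 117 in Ki67-positive recovery cells. It was 3.22-fold and 2.80-fold higher (edgeR adjusted p = 5.89e-07 and 2.38e-06). Levels above adult were also seen in Ki67-negative cells, at 87.4 and 96.4 CPM at PND8 and 58.2 and 72.2 in recovery (edgeR adjusted p = 8.28e-06 and 0.000713), while the H3K27ac region inside it was absent from all 4 Ki67-positive lists. Tubb6, a beta-tubulin, went from 16.8 and 17.2 CPM to 28.2 and 29.7 at PND8 (0.77 ± 0.21, edgeR adjusted p = 0.00727) and 35.4 and 51.1 in recovery (1.34 ± 0.20, 0.000142). Its region was in all 4 cuprizone lists, where the whole overlapping regions measured 215 to 442 normalized tags. In the adults the region itself measured 22.3 in replicate 1, and what overlapped it in replicate 2 measured 16.7. These values can cover unlike widths, so they do not measure a change at the lost region itself. Copz2, a subunit of the COPI vesicle coat, measured 8.21 and 5.62 CPM in adults, 11.3 and 12.1 at PND8 and 15.3 and 13.5 in recovery. It rose in recovery (1.06 ± 0.22, edgeR adjusted p = 0.00174) and at PND8 (0.76 ± 0.22, 0.0125), the latter lost without adult replicate 2 or PND8 Ki67-positive replicate 2 (up to 0.125). Copz2 lies 30050 bp from its region, and Gm11523 is the gene whose promoter stretch the region holds. Pon2, a paraoxonase, rose by 0.47 ± 0.09 at PND8 (edgeR adjusted p = 0.00104). In recovery it rose by 0.37 ± 0.09 (edgeR adjusted p = 0.00573), a call lost without adult replicate 1 or recovery replicate 2 (up to 0.0612). Ten1, a telomere-capping protein, rose by 0.87 ± 0.17 and 0.64 ± 0.17 (edgeR adjusted p = 0.000881 and 0.00816), the second lost without adult replicate 2 or recovery replicate 1 (up to 0.0863). Anxa3, whose region was in all 6 other lists, rose by 0.27 ± 0.10 at PND8 (edgeR adjusted p = 0.035) and 0.30 ± 0.10 in recovery (0.024). The call was lost without any 1 of the 4 at PND8 (up to 0.171), and without either adult replicate or recovery replicate 2 in recovery (up to 0.193).

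The genes nearest to the strongest regions changed little in RNA. Hs1bp3 (-0.26, edgeR adjusted p = 0.106 at PND8; -0.37, 0.0291 in recovery, lost without either adult replicate or recovery replicate 2, up to 0.263) had 2 lost regions. B4galt1, a galactosyltransferase, and Otulinl passed at PND8 only (-0.22 and -0.23, edgeR adjusted p = 0.0367 and 0.0272), and both calls were lost without any 1 of the 4 libraries (up to 0.193 and 0.157). Lrrfip1 did not pass at PND8 (0.09, edgeR adjusted p = 0.483) and rose in recovery (0.58 ± 0.10, 0.000518). Fchsd2 and Pan3 each passed in 1 group, with log2 fold changes of -0.33 in recovery (edgeR adjusted p = 0.0381) and -0.42 at PND8 (0.0101). The Fchsd2 call was lost without any 1 of the 4 libraries (up to 0.164), and that of Pan3 without adult replicate 2 or PND8 Ki67-positive replicate 2 (up to 0.0745).

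Set directly against PND8, Ki67-positive recovery cells had more RNA of many nearest genes. Of the 126, 36 were higher and 13 lower (28.6% and 10.3%), when 16.7% of all genes tested were higher and 14.2% lower. Genes near other adult regions were close to this share: 25.1% were higher among genes nearest to retained distal regions and 26.5% among those nearest to a region found in 1 of the 4 lists. Csmd3 was 4.76 ± 0.30 higher on the log2 scale (edgeR adjusted p = 7.64e-08), Ptprm 2.54 ± 0.17 (1.02e-07), Chst8 2.17 ± 0.35 (0.000386) and Hlf 1.82 ± 0.31 (0.000575). Selplg was 0.92 ± 0.11 higher (edgeR adjusted p = 3.3e-05) and Il10ra 0.70 ± 0.10 (0.000118). For Lifr, Adgrg1, Amer2 and Prag1, which were lower than adult in both groups, this difference did not pass.

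Between Ki67-positive and Ki67-negative cells of the same condition the number of nearest genes called depended on the fit. At PND8 7 of 126 were lower and 1 higher in Ki67-positive cells (5.56% and 0.794%), when 3.15% of all genes were lower and 2.75% higher. The 7 were Ptprm, Map1lc3a, Adgrg1, Nav3, Khdrbs3, Eng and Znrf1, and the gene model Gm15246 was higher. Adgrg1 measured 423 and 374 CPM in Ki67-positive against 682 and 570 in Ki67-negative cells (-0.65 ± 0.10, edgeR adjusted p = 0.00189), and Ptprm 14.5 and 13.5 against 34.3 and 24.1 (-1.04 ± 0.17, 0.00252). Without PND8 Ki67-positive replicate 2 both calls were lost (0.0687 and 0.0556) and 1 gene was called in all. Without PND8 Ki67-positive replicate 1 there were 5, and without PND8 Ki67-negative replicate 1 14. The Nav3 call (-0.64, edgeR adjusted p = 0.0242) was lost without Ki67-negative replicate 1 or either Ki67-positive replicate (up to 0.303). In recovery 2 were lower and 1 higher (1.59% and 0.794%; all genes 0.867% and 1.87%). Csmd3 measured 45.8 and 30.9 CPM in Ki67-positive against 90.1 and 69.6 in Ki67-negative cells (-1.05 ± 0.18, edgeR adjusted p = 0.00508). Dnmt3a was lower (-0.35 ± 0.08, edgeR adjusted p = 0.0302) and Ncaph higher (0.68 ± 0.14, 0.0147). Without Ki67-negative replicate 1 or Ki67-positive replicate 2 of recovery none of the 126 was called. Within each condition the same-numbered libraries share a header code. With that code as a covariate, in a fit without the adults that was added after seeing the data, 16 nearest genes were lower and 2 higher at PND8, and 8 lower and 1 higher in recovery.

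Markers of other cells differed between the RNA groups. The summed level of 9 border macrophage genes was 80.5 to 99.1 CPM in adults, 881 to 887 in Ki67-positive PND8 cells and 119.6 in both Ki67-positive recovery libraries, where Lyve1 and Cd209f were at 0. Of 8 tested, 4 were higher at PND8, and 1 higher and 6 lower in recovery. The 11 monocyte and neutrophil genes summed to 75.5 and 252 CPM in adults, 12.1 to 12.3 in Ki67-positive PND8 cells (Ly6c2 and Retnlg at 0) and 15.8 to 18.6 in recovery (Ly6c2, S100a9, Retnlg and Mmp8 at 0). In both groups 7 of 8 tested were lower and 1 higher. Summed astrocyte genes ranged from 61.5 to 568 CPM over the 10 libraries, oligodendrocyte lineage genes from 72.2 to 138, endothelial genes from 47.8 to 88.1, lymphocyte genes from 17.3 to 56.0 and neuron genes from 2.43 to 10.5. Erythroid genes reached 23.3 to 77.0 CPM at PND8 and at most 7.45 elsewhere. The part of these markers in the differences of the nearest genes was not tested.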

How the data were processed

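The authors deposited peak lists called separately in each library with HOMER, per the file headers: H3K27ac in 12 libraries, H3K4me3 in 2, Rpb2 in 3 and ATAC-seq in 3. H3K27ac windows of 500 bp were stitched within 1000 bp and called at a false discovery rate of 0.001 against input, per the file headers, which name mm10. The ATAC-seq headers name no build and no input, and the PND8 Rpb2 list was called against an H3K27ac input. The deposited signal is a tag count after scaling each library to 10000000 tags, and the deposited score is the peak caller's own. The submitters' processing notes name STAR 2.7.0f, Bowtie2 2.3.4.1, HOMER 4.11 and DESeq2. RNA came as deposited raw counts per gene for 20999 genes, with at most 3 tags per position per the file headers. The deposited TPM values sum to 472498 to 486779 per library and were used for no test. The labels call the 2 replicates per RNA group biological.

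Overlaps needed 1 bp, and widths are end minus start. Outside adult replicate 1, the normalized tags of a lost region are those of all regions overlapping it, over their whole width. Regions were tied to the nearest TSS of the count table. Counts were filtered and fitted across 5 groups with edgeR 4.0.16 (R 4.3.3, quasi-likelihood test, TMM scaling, which also scales the CPM). The p-values were adjusted over 12230 genes. On simulated data with 12021 genes tested, 81 of 100 genes changed 2-fold and 86 of 100 changed 4-fold were called with the right sign. In the same contrast 11 unchanged genes were called, and in a contrast without changed genes 0 were called. Exact permutation tests used scipy 1.17.1. Intervals on shares are Wilson 95% intervals and cover counting error only. Gene lists covered homeostatic genes, lineage transcription factors, immediate early, inflammatory, disease-associated, interferon, S phase and G2/M genes, and markers of other cells. Named genes were the list genes nearest to a lost region, the 8 largest falls and 8 largest rises called in both Ki67-positive groups at a mean of at least 10 CPM, the nearest genes of the 8 strongest regions, and the 8 genes nearest to the most regions. Genes outside this rule are named from counts after their values were seen. The regions and lists were chosen with earlier results of these data known. Other scaling, filters, DESeq2, overlap rules, a replicate term and leaving out each library were tried as alternatives. Sequences of the regions themselves were not analysed here, and results for some of the named genes are not reported here.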

Additional observations from a re-analysis of the deposited data

Results flagged for a closer look

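For 15 nearest genes the change from adult differed between Ki67-positive recovery and Ki67-positive PND8 cells in a direct test of the difference (edgeR quasi-likelihood test, log2 recovery minus PND8). These were all genes named in the report whose difference passed, plus 3 that were called in opposite directions against the adults and were chosen after their values were seen. Genes that were lower in both groups, less so in recovery, were Csmd3 (4.76, adjusted p = 7.64e-08), Ptprm (2.54, 1.02e-07), Chst8 (2.17, 0.000386), Hlf (1.82, 0.000575) and Hivep3 (0.60, 0.00392). Selplg (0.92, 3.3e-05) and Il10ra (0.70, 0.000118) were called lower at PND8 and not in recovery. Tubb6 (0.57, 0.0388) was higher in both groups, and Lrrfip1 (0.49, 0.00298) and Sparc (0.38, 0.0381) were called higher in recovery alone. Mef2c (-0.34, 0.00836) and Fchsd2 (-0.41, 0.0181) were called lower in recovery alone. The differences of Hivep3, Tubb6, Sparc, Mef2c and Fchsd2 were lost when 1 of several libraries was left out, with adjusted p up to 0.0747, 0.374, 0.23, 0.0734 and 0.11.

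The 3 genes with opposite calls encode an adaptor of leukotriene synthesis, an integrin chain and a sugar isomerase. Alox5ap measured 133 and 139.7 CPM in adults, 100.3 and 101.03 in Ki67-positive PND8 cells and 182 and 193 in recovery (difference 0.89, edgeR adjusted p = 7.76e-06). Itgb2 measured 409 and 432 CPM in adults, 267 and 249 at PND8 and 568 and 600.4 in recovery (1.18, edgeR adjusted p = 8.81e-07). Mpi ran the other way, with 91.0 and 88.8 CPM in adults, 155 and 136 at PND8 and 72.5 and 71.5 in recovery (-1.01, edgeR adjusted p = 1.17e-05). The Itgb2 region was in all 4 cuprizone lists (310 to 405 normalized tags in the whole overlapping regions) and in neither PND8 Ki67-negative list. The Alox5ap region was in none of the 6 lists.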

How the results depend on the processing

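The size of the set depended on the calls. It was 145 regions in the main setting, 222 when an overlap had to cover 50% of the region, 90 with a gap of at least 1000 bp, 46 among regions at or above the median score and 123 with replicate 2 regions as the base. Leaving out 1 list gave 174 to 859 (227 without PND8 Ki67-positive replicate 2, 389 without adult replicate 2, 859 without adult replicate 1). Added after seeing the data, a comparison within the header code shared by adult replicate 2 and some Ki67-positive lists gave 1184. The cuprizone difference from PND8 ranged from 6.78 to 19.9 points, and that within cuprizone from 19.3 to 35.2, when 1 list was left out. ATAC-seq peaks at or above the median score covered 26.2% (adult), 13.1% (PND8) and 24.1% (recovery) of the regions, and recovery peak centres 37.9%. Rpb2 covered at least 50% of 1.38%, 0% and 0% of the regions.

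Called nearest genes numbered 79 (PND8 Ki67-positive), 67 (recovery Ki67-positive), 61 and 53 (the Ki67-negative groups), 49 (recovery against PND8), and 8 and 3 (Ki67-positive against Ki67-negative at PND8 and in recovery). With a fold of at least 2 they were 19, 13, 10, 12, 12, 1 and 1. For regions whose nearest gene had no retained region they were 4, 2, 2, 2, 3, 0 and 0, of 5 genes tested. For gaps of at least 1000 bp the first 5 were 50, 44, 39, 34 and 31. With host genes recovery Ki67-negative cells had 32. Leaving out 1 library gave 56 to 61, 37 to 59, 42 to 76, 24 to 39, 33 to 38, 1 to 14 and 0 to 2. The last 2 counts became 15 and 6 without a filter and 18 and 9 in an added fit without adults that had the header code as a covariate, and the PND8 count 4 in a fit of those 2 groups alone. With a replicate block they were 15 and 6, and the other 5 counts 82, 73, 71, 59 and 53. The labels do not pair the replicate numbers: deviations of same-numbered libraries correlated at 0.338 (PND8) and 0.263 (recovery) between Ki67-positive and Ki67-negative cells and at -0.008 to 0.097 between other groups. Over the named genes and all alternatives, 2096 of 2310 gene comparisons kept direction and call, 139 lost the call, 75 gained it and 0 reversed. The causes were not tested. In H3K27ac, adult replicate 1 had 32.6% of tags in regions, and the part of this in the calls of weak regions was not tested.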
